A study of Mus musculus with 9 samples.

Results

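The transcripts described here are those of 10 genes that encode proteins of the Z-disc of heart muscle or proteins thought to sense its stretch: Actn2, Ldb3, Myot, Myoz2, Tcap, Csrp3, Fhl1, Fhl2, Ankrd1 and Ankrd23. Every probe set assigned to one of these symbols alone was taken, which gave 14 of the 34945 probe sets tested (10 of 18193 genes). Ldb3 had 3 probe sets, Ankrd1 and Fhl1 had 2 each, and the other 7 genes had 1 each. Probe sets of one gene share their transcripts and are not independent.

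RNA was taken from mouse hearts at 2 months of age, on a C57BL/6 background, with 3 arrays in each of 3 groups. Mutant right atria had the genotype Myh6-cre; COUP-TFIIflox/flox, in which Cre recombinase driven by the Myh6 promoter of heart muscle cells deletes Nr2f2, which encodes the nuclear receptor COUP-TFII. Control right atria and control ventricles had the genotype COUP-TFIIflox/flox without Cre, so all groups carried the floxed alleles, and Cre expression and the loss of COUP-TFII cannot be told apart. In bulk tissue, fewer cells of a type and less RNA per cell cannot be told apart either.

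The Z-disc is the lattice in which thin filaments of neighbouring sarcomeres are anchored and cross-linked by alpha-actinin, and to which the ends of the giant spring protein titin are fixed. Beside its mechanical role it holds LIM-domain proteins, while muscle ankyrin-repeat proteins bind the elastic part of titin. Members of both kinds are found at the sarcomere and in the nucleus, with levels that follow mechanical load. Defects in several of these genes cause cardiomyopathy or skeletal myopathy in humans.

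Values are log2 intensities of the authors' normalised data. Array medians lay between 6.34 and 6.38 and array maxima between 15.02 and 15.11, so members near 14 lie close to the top of the range, where differences may be compressed. Of 6 probe sets of the removed gene Nr2f2, 4 were lower in the mutants, 1416158_at did not pass (-0.48 ± 0.18, adjusted p = 0.108) and 1431237_at ran the other way without passing (0.14 ± 0.11, adjusted p = 0.46). Which exons were deleted is not given in the sources used here. The one with the highest mean differed by -0.74 ± 0.15 (adjusted p = 0.0113), at 6.82, 6.62 and 6.82 against 7.53, 7.66 and 7.29 in control atria and 5.96, 5.34 and 5.74 in ventricles. The 9 heart muscle markers were bright in every array (mean log2 intensity 14.20 to 14.41). The 10 hepatocyte markers differed between the groups, with array means of 7.61 to 10.24 in control atria against 5.38 to 5.42 in mutants and 5.21 to 5.32 in ventricles. The 10 mesothelial markers followed, with 9.28 to 9.55, 7.76 to 7.87 and 6.51 to 6.80. Sex-linked transcripts were mixed in the atria: the mean of 3 Y-linked genes was 3.73, 8.84 and 8.84 in mutant atria, 5.22, 8.81 and 8.33 in control atria and 3.78 to 3.85 in ventricles. For Gapdh, a readout of RNA integrity, the 3' control exceeded the 5' control on the log2 scale by 0.345 to 0.364 in control atria, by 0.214 to 0.304 in mutants and by 0.153 to 0.227 in ventricles. The Actb controls gave a larger excess, of 1.389 to 1.486 in control atria, 1.276 to 1.383 in mutants and 1.263 to 1.367 in ventricles. By both genes every control atrium lay above every other array. The part of RNA integrity in the results was not tested.

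Fhl2, the member that changed most in the mutants, is shown first by its promoter windows, beside those of its relative Fhl1 and of the ankyrin-repeat pair Ankrd1 and Ankrd23, whose levels run in opposite directions between the chambers. Each window is RefSeq sequence of build GRCm38.p6 from 250 bases before to 50 bases after an annotated start, read 5' to 3' on the strand of the gene. Capitals mark matches to 5 motifs searched on both strands: the nuclear receptor half-site AGGTCA, the M-CAT element CATTCC of TEAD factors, the GATA motif (written AGATAA or with a final G as AGATAG, and with an initial T as TGATAA or with both changes as TGATAG), and the MEF2 box and the CArG box of SRF.
Fhl2, start 1, minus strand, chr1:43196712-43197011: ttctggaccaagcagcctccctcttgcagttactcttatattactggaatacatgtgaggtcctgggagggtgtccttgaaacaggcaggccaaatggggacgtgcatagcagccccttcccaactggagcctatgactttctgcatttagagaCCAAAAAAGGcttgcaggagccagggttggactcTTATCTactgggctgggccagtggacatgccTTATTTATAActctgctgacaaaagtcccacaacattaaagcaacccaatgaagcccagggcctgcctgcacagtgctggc
Fhl2, start 2, minus strand, chr1:43163912-43164211: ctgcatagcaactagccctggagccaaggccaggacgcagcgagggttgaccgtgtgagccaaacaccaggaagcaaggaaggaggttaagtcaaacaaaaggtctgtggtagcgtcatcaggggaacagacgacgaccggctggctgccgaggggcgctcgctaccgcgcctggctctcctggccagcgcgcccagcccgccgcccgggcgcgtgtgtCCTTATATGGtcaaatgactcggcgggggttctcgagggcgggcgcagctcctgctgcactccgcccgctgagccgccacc
Fhl1, start 1, plus strand, chrX:56779433-56779732: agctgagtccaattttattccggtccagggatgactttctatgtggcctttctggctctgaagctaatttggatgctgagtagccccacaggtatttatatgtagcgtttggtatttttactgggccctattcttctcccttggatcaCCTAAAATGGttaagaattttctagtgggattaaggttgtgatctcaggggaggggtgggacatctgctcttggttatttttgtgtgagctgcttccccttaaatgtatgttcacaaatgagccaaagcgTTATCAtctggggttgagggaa
Ankrd1, start 1, minus strand, chr19:36119795-36120094: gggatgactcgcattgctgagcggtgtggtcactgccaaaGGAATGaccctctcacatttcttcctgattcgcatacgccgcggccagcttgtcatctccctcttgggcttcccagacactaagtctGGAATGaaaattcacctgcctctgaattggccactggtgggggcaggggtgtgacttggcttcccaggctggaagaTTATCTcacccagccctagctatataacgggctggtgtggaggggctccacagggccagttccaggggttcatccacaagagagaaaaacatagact
Ankrd23, start 1, minus strand, chr1:36536507-36536806: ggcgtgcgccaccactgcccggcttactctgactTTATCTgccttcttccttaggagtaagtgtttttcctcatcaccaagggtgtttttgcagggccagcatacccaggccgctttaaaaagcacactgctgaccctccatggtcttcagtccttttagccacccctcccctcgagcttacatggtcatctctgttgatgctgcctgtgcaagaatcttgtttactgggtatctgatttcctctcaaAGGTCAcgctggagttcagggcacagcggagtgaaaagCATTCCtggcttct

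Both Fhl2 windows hold a CArG box, from 96 and from 31 bases before the start, and the first also holds a MEF2 box from 31 bases before it and a GATA motif. The first Fhl1 window likewise has a CArG box, from 102 bases before the start. Ankrd1 carries a pair of M-CAT elements on the opposite strand, from 210 and 123 bases upstream, and Ankrd23 has an AGGTCA half-site that spans its first annotated start. No window of Myot or Tcap was used, and member windows on chromosome 18, where Myot lies, were left out. Over all 13 windows of the 8 genes with a window used here, a CArG box was in 5 (3 genes), where it was in 1.63% of all 32851 windows. The 2 Ldb3 windows overlap and share 1 CArG box. A MEF2 box was in 2 of the 13 against 3.19%, a GATA motif in 7 against 29.8%, an M-CAT element in 3 against 14.7% and an AGGTCA half-site in 2 against 16.3%. These matches describe the letters of the windows, and which start is used in these tissues was not measured.

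**Figure D1:**
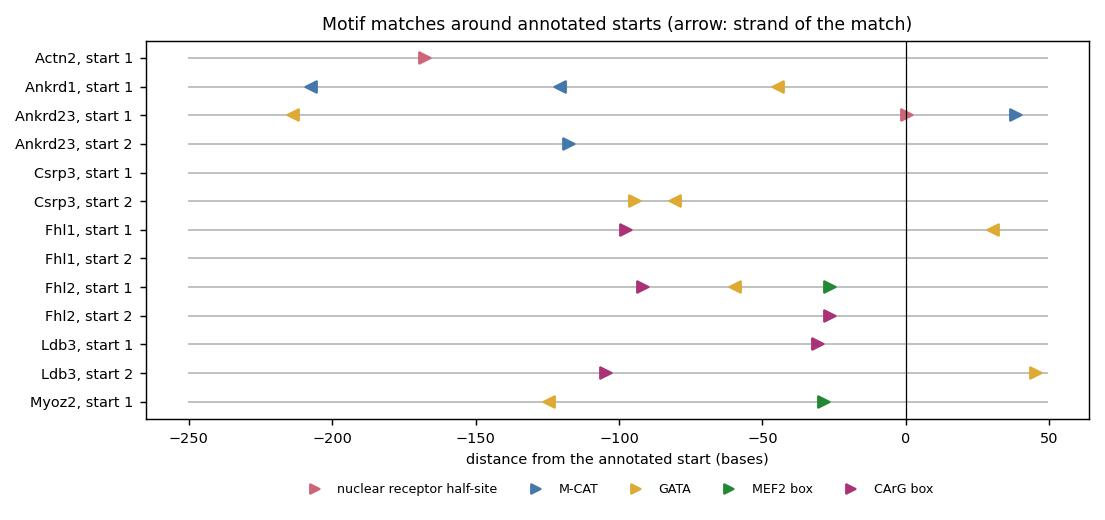
Positions of motif matches in 13 promoter windows of 8 genes, in bases from the annotated start (0), each arrow pointing along the strand of the match. The CArG boxes lie in windows of Fhl1, Fhl2 and Ldb3, and the pair of M-CAT elements in the window of Ankrd1.

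Mutant against control right atria sets atria with Cre and the deletion of Nr2f2 beside atria with neither. Fhl2 and Tcap rose, Fhl1 fell slightly, and the other 7 genes did not pass the test at an adjusted p of 0.05. By probe set 2 of 14 rose and 1 fell, while 13.9% of all probe sets passed (5.86% higher and 8.05% lower). The median log2 difference over the 14 probe sets was 0.11, beside 0.02 over all probe sets. Differences are log2 ratios ± SE from limma over all 9 arrays, with Benjamini-Hochberg adjusted p-values over all 34945 probe sets.

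Ventricle against right atrium of control hearts shows how far the same genes set the chambers apart. Here 6 of the 14 probe sets were higher in the ventricle and 4 lower, against 47.2% of all probe sets that passed (25.7% higher and 21.5% lower). Myot, Ankrd23, Fhl2 and Myoz2 were higher in the ventricle, Ankrd1 was lower, and the probe sets of Ldb3 and Fhl1 disagreed. Between mutant atrium and control ventricle 3 of 14 were higher in the mutant and 5 lower, against 27.5% of all probe sets (13.4% higher and 14.1% lower). All 3 comparisons share arrays and are not independent of each other. Y-linked transcripts were low in all ventricles and mixed in the atria, so chamber and sex are partly confounded. With the Y-linked genes as a covariate, mutant atrium against ventricle still gave 3 higher and 5 lower. The difference went from -2.57 to -3.55 for Ankrd23, from -3.42 to -4.15 for Myot and from 0.85 to 0.66 for Ankrd1 (1420992_at). The part of sex was not tested further. The mutant and control atria differed in hepatocyte and mesothelial markers as given above, and with the mean of the hepatocyte markers as a covariate, which tracks the groups closely and took the median SE of all probe sets from 0.0912 to 0.225, only Fhl2 still passed in each comparison with control atria.

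**Figure D2:**
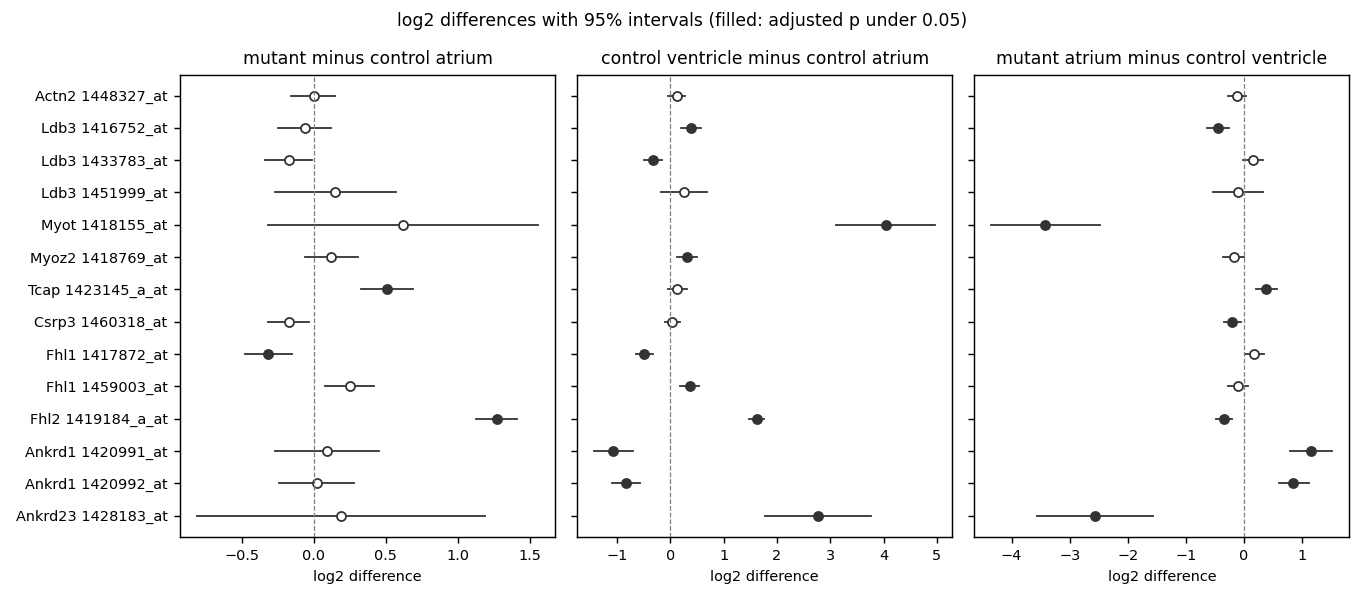
Difference in log2 intensity of each probe set (point) with its 95% interval (line) in the 3 comparisons, filled where the adjusted p was under 0.05. Fhl2 rises by 1.27 in the mutants, and Myot and Ankrd23 have the widest intervals.

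The scaffold of the lattice hardly differed. Actn2, the sarcomeric alpha-actinin that cross-links thin filaments, stood at 13.40, 13.47 and 13.46 in mutant atria, 13.35, 13.49 and 13.50 in control atria and 13.49, 13.64 and 13.55 in ventricles. The control atria overlapped each of the other groups, while all mutant atria were below all ventricles (-0.12 ± 0.07, adjusted p = 0.238). The difference between mutant and control atria was 0.00 (95% interval -0.16 to 0.15, adjusted p = 0.979), and the ventricle differed from control atria by 0.12 ± 0.07 (adjusted p = 0.197).

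Ldb3 encodes ZASP, also called Cypher, a PDZ and LIM protein that binds alpha-actinin and exists in several splice forms. Its brightest probe set, 1433783_at, gave 12.92, 12.99 and 13.05 in mutant atria, 13.12, 13.24 and 13.12 in control atria and 12.75, 12.83 and 12.94 in ventricles. By this probe set the mutant arrays lay below every control atrium and overlapped the ventricles, with a difference of -0.17 ± 0.07 that did not pass (adjusted p = 0.16), and the ventricle was lower than control atria by -0.32 ± 0.07 (adjusted p = 0.00621). The second, 1416752_at, ran the other way: it was 12.12, 12.13 and 12.31 in mutant atria, 12.12, 12.31 and 12.31 in control atria and 12.57, 12.62 and 12.70 in ventricles. All ventricles were above all atria, by 0.38 ± 0.08 against control atria (adjusted p = 0.00428) and with a difference of -0.45 ± 0.08 for mutant atria against ventricles (adjusted p = 0.00316). The third, 1451999_at, ranged from 10.20 to 10.87 over all arrays with overlap of every group and passed in no comparison. Chamber direction for Ldb3 therefore depends on the probe set, and the mean of the 3 probe sets gave 0.11 (adjusted p = 0.289) for ventricle against control atrium. Which splice forms each probe set reads was not analysed here.

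Myot encodes myotilin, an actin cross-linker that binds alpha-actinin and is best known from skeletal muscle. It was 6.42, 8.61 and 7.43 in mutant atria, 6.86, 6.96 and 6.78 in control atria and 10.87, 10.67 and 11.17 in ventricles. Control atria were tightly grouped and the ventricles far above them, by 4.04 ± 0.42 or 16.4-fold (adjusted p = 4.87e-05). Mutant atria spread to both sides of the control atria, with a difference of 0.62 ± 0.42 (95% interval -0.32 to 1.56, adjusted p = 0.359), and stayed below every ventricle (-3.42 ± 0.42, adjusted p = 0.000257). Of 13 skeletal muscle markers, 7 in control atria and ventricles and 8 in mutant atria, among them the fast myosins Myh1, Myh2 and Myh4, were in the dimmest 40% of probe sets, and the summed intensity of the list was 931 to 1219 in mutant atria, 1171 to 1270 in control atria and 1209 to 1835 in ventricles. In the ventricle 4 of the 13 were higher than in control atria (Mybpc2, Mylpf, Tnnc2 and Tnni2) and 3 lower (Actn3, Tnnt3 and Pvalb). Mybpc2, the fast skeletal myosin-binding protein C, was 6.15, 7.15 and 7.03 in mutant atria, 7.50, 7.69 and 7.10 in control atria and 8.73, 8.47 and 9.35 in ventricles (1.42 ± 0.29 for ventricle against control atrium, adjusted p = 0.00298), in the same order as Myot within the mutants and within the ventricles. Casq1, the skeletal calsequestrin, was 6.99, 8.55 and 7.74 in the mutants, again in the order of Myot, and passed in neither comparison with control atria. The rest of the list did not share this order as a set. Replicate 1 was the lowest mutant array for Tnnt3, Tnnc2 and Pvalb as well. Replicate 2, the highest for Myot, was the lowest for Myh1, Actn3, Tnni2, Mylpf (6.66, 6.44 and 6.71), Atp2a1 (7.62, 7.44 and 7.81) and Myod1, and replicate 3 for Myh2 and Myh4. The part of these markers in the Myot values was not tested.

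Myoz2, or calsarcin, tethers the phosphatase calcineurin to the Z-disc. It stood at 13.44, 13.67 and 13.71 in mutant atria, 13.52, 13.41 and 13.52 in control atria and 13.83, 13.74 and 13.80 in ventricles. Ventricles were above all atria, by 0.31 ± 0.08 against control atria (adjusted p = 0.0131), while mutant and control atria overlapped (0.12 ± 0.08, adjusted p = 0.352). With quantile normalisation the chamber difference was 0.20 and did not pass (adjusted p = 0.0719).

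Tcap encodes telethonin, which caps and glues together the Z-disc ends of titin. Its values were 13.74, 13.83 and 13.64 in mutant atria, 13.23, 13.31 and 13.13 in control atria and 13.33, 13.27 and 13.45 in ventricles. Every mutant array was above every control array of either chamber. Tcap rose by 0.51 ± 0.08 or 1.43-fold against control atria (adjusted p = 0.00298) and was higher than in ventricles by 0.38 ± 0.08 (adjusted p = 0.00602), whereas the control chambers differed by 0.13 ± 0.08 (adjusted p = 0.214). Under the hepatocyte covariate its difference was 0.69 and did not pass (adjusted p = 0.306).

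Csrp3 encodes muscle LIM protein, a partner of telethonin and alpha-actinin that is needed for the response of heart muscle to load. It was 13.77, 13.90 and 13.92 in mutant atria, 14.03, 14.03 and 14.06 in control atria and 14.07, 14.04 and 14.09 in ventricles. All mutant arrays were below all others, but the difference of -0.17 ± 0.06 from control atria did not pass (adjusted p = 0.104). It passed with an intensity trend (adjusted p = 0.0254) and with quantile normalisation (0.0479). Against ventricles it was -0.20 ± 0.06 (adjusted p = 0.0399), a call that was lost with the replicate block (0.0619), quantile normalisation (0.183), array weights (0.0502), the hepatocyte covariate (0.0515) and a fit of only both groups (0.0655). It was also lost without mutant atrium replicate 1 (0.129), 2 (0.0669) or 3 (0.0612), without control atrium replicate 2 (0.0574) and without ventricle replicate 1 (0.0812), 2 (0.0657) or 3 (0.0933).

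The relatives Fhl1 and Fhl2, proteins built of LIM domains in a row that bind titin and signalling kinases, moved in opposite directions. Fhl2 was 13.89, 13.98 and 13.94 in mutant atria, 12.73, 12.67 and 12.60 in control atria and 14.29, 14.26 and 14.32 in ventricles. The 3 groups do not overlap and the mutants lie between the control tissues, nearer to the ventricle. Fhl2 rose by 1.27 ± 0.06 or 2.41-fold in the mutants (adjusted p = 2.83e-06), the ventricle exceeded control atria by 1.62 ± 0.06 or 3.08-fold (adjusted p = 1.28e-07), and the mutants remained below the ventricle by -0.35 ± 0.06 (adjusted p = 0.00265). Since ventricular Fhl2 lies near the array maximum, its distance from the atria may be understated.

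Fhl1, the X-linked relative, gave 12.59, 12.55 and 12.48 in mutant atria, 12.88, 12.92 and 12.77 in control atria and 12.35, 12.28 and 12.45 in ventricles by its bright probe set 1417872_at. Mutants were below every control atrium and above every ventricle. The fall of 0.32 ± 0.07 in the mutants (adjusted p = 0.0191) was lost without mutant atrium replicate 2 (adjusted p = 0.0585) or 3 (0.0734), without control atrium replicate 1 (0.0604) or 2 (0.0709) and with the hepatocyte covariate (-0.14, 0.905). Ventricles were lower than control atria by -0.49 ± 0.07 (adjusted p = 0.000457), and mutant atria and ventricles differed by 0.18 ± 0.07 (adjusted p = 0.0983). The other probe set, 1459003_at, lay among the dimmest probe sets of the array (4.28 to 4.79). It was higher in ventricles by 0.36 ± 0.08 (adjusted p = 0.00453) and differed by 0.25 ± 0.08 in the mutants (adjusted p = 0.0613), so the mean of both probe sets gave -0.03 for the mutants (adjusted p = 0.722) and -0.07 for the ventricle (adjusted p = 0.325).

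**Figure D3:**
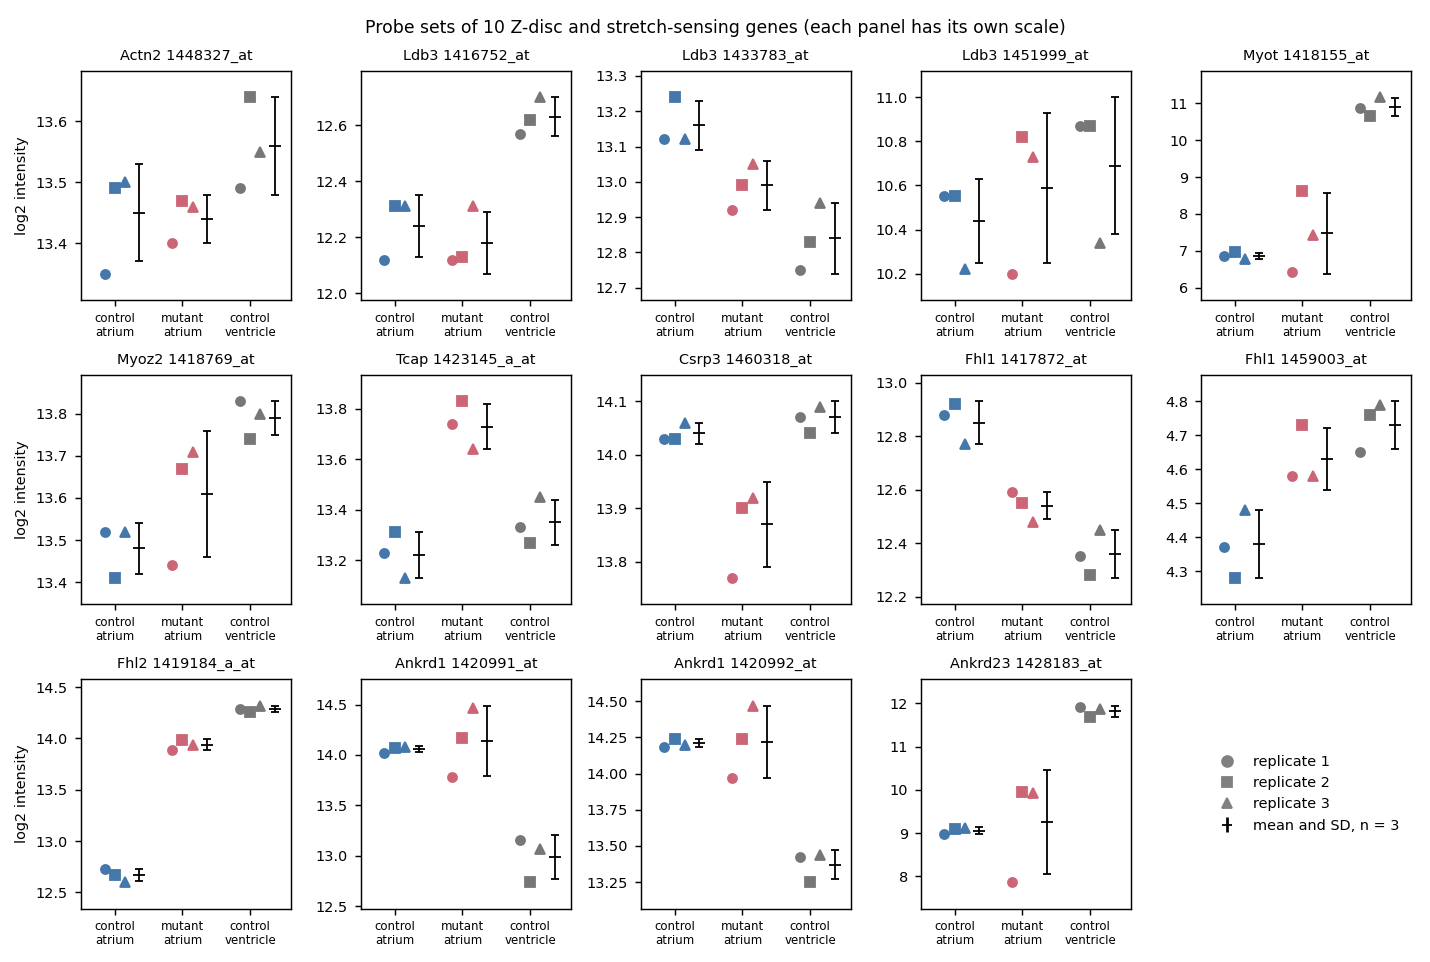
Log2 intensity of the 14 probe sets in each of 9 arrays, by group, with the mean and SD of 3 arrays at the right of each group and an own scale in each panel. Fhl2 shows 3 separate groups, Tcap is raised in mutant atria alone, and Myot and Ankrd23 are spread among the mutant arrays.

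Ankrd1 and Ankrd23 encode muscle ankyrin-repeat proteins, which bind the elastic part of titin and are induced by stretch, and Ankrd1, also called CARP, acts as a transcriptional cofactor as well. Ankrd1 was the one gene of the 10 whose probe sets were all lower in the ventricle. The probe set 1420992_at gave 13.97, 14.24 and 14.47 in mutant atria, 14.18, 14.24 and 14.20 in control atria and 13.42, 13.25 and 13.44 in ventricles. All atria were above all ventricles, with a difference of -0.83 ± 0.11 for ventricle against control atrium (adjusted p = 0.000302) and 0.85 ± 0.11 for mutant atrium against ventricle (adjusted p = 0.000458). By the second probe set, 1420991_at, the ventricle was lower by -1.07 ± 0.16 (adjusted p = 0.000539). Mutant and control atria differed by 0.02 ± 0.11 (95% interval -0.24 to 0.28, adjusted p = 0.934) and 0.09 ± 0.16 (adjusted p = 0.759), with mutant arrays on both sides of the controls.

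Ankrd23, also called DARP, had the reverse chamber pattern. It was 7.87, 9.95 and 9.93 in mutant atria, 8.97, 9.09 and 9.11 in control atria and 11.91, 11.68 and 11.88 in ventricles. Ventricles exceeded control atria 6.8-fold (2.77 ± 0.45, adjusted p = 0.000812) and mutant atria 5.95-fold (adjusted p = 0.00212). Of the mutant arrays 2 were above and 1 was below all control atria, so that the difference of 0.19 ± 0.45 had a 95% interval of -0.81 to 1.19 (adjusted p = 0.812).

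The mutant arrays differed among themselves in these genes. Replicate 1 was the lowest of the 3 mutant arrays in 12 of the 14 probe sets, while it was lowest in 36.7% of all probe sets, and replicate 3 was lowest in the other 2. By the brightest probe set of each gene, replicate 1 was lowest in 8 of 10 genes. Some gaps were small, as for Ldb3 1416752_at (12.12 against 12.13 in replicate 2). Of 29 other Z-disc genes replicate 1 was lowest in 13 (34.4% of all genes) and replicate 2 in 11 (38% of all genes). The SD among mutants was 1.20 for Ankrd23 and 1.10 for Myot, in both cases larger than that of 99.9% of probe sets, against 0.08 and 0.09 among control atria. For Ankrd1 it was 0.25 by 1420992_at, larger than that of 92.9% of probe sets. By contrast Fhl2 and Tcap varied little in the mutants, with an SD of 0.05 and 0.09 beside a median of 0.09 over all probe sets.

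Without mutant atrium replicate 1 the mutant comparison called 5 probe sets in place of 3. Ankrd23 then differed by 0.88 (adjusted p = 0.000577) and Myot by 1.15 (adjusted p = 0.0322), and the calls of Fhl2, Tcap and Fhl1 held. Since replicate 1 was the lowest mutant array for Ankrd23 and Myot, leaving it out raises both differences by construction. The spread of Myot was not confined to it, as replicates 2 and 3 stood at 8.61 and 7.43. Replicate 1 was also the only mutant array with low Y-linked transcripts and high Xist (12.48 against 6.73 and 6.48). With the Y-linked genes as a covariate the SE of Ankrd23 fell to 0.24, and the differences of Ankrd23 (0.29, adjusted p = 0.469) and Myot (0.69, adjusted p = 0.189) did not pass. Among control atria, replicate 1 had the lowest Y-linked mean (5.22) and the highest Xist (12.73), with Ankrd23 at 8.97 against 9.09 and 9.11 and Myot at 6.86 against 6.96 and 6.78. Control replicates 2 and 3 had Y-linked means of 8.81 and 8.33 together with Xist at 8.55 and 10.91. The Y-linked mean of control replicate 1 was above the 3.78 to 3.85 of the ventricles. The control atria are thus not a clean contrast of the sexes, and whether arrays held pooled RNA was not tested. The part of sex in the mutant spread was not tested beyond this covariate.

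**Figure D4:**
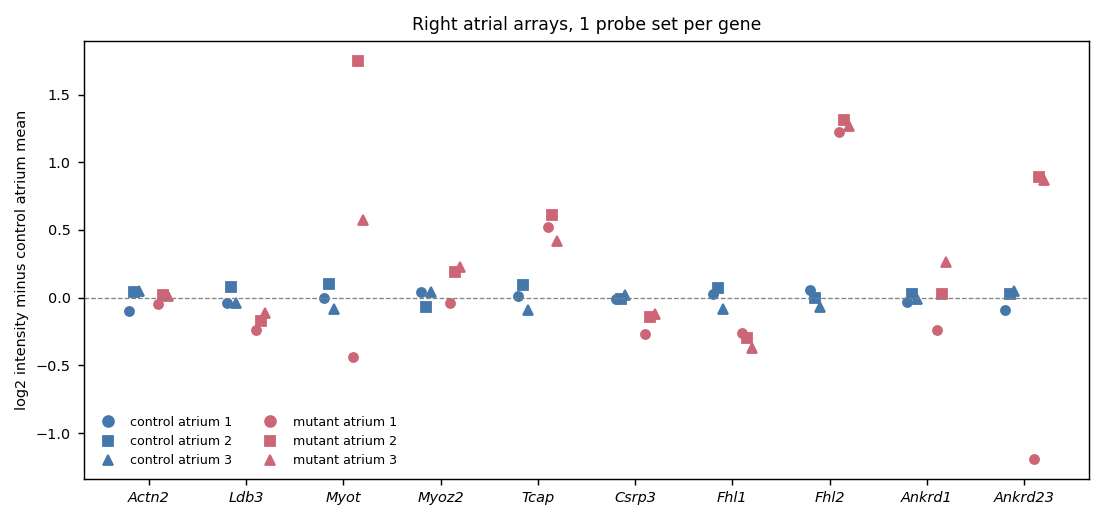
Log2 intensity of each right atrial array minus the mean of the 3 control atria, for the brightest probe set of each of 10 genes. Control atria lie close to 0, all mutants are raised for Fhl2 and Tcap, and mutant replicate 1 lies lowest for Ankrd23 and Myot.

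Other genes of the same structures were read from the brightest probe set of each gene, where 15.9% of 18193 genes passed in the mutant comparison (6.92% higher and 8.99% lower). Of 30 other Z-disc genes 29 were measured, of which 4 rose and 2 fell, with a median of 0.04 beside 0.03 over all genes. Ky, a peptidase-like protein of the Z-disc, rose by 1.51 ± 0.14 (adjusted p = 0.000168) and the formin Fhod3, which builds thin filaments in heart muscle, by 0.48 ± 0.09 (adjusted p = 0.0068). Palladin, Palld, rose by 0.36 ± 0.08 (adjusted p = 0.0188), as did Nebl, the heart relative of nebulin, by 0.24 ± 0.06 (adjusted p = 0.0333, named after its value was seen). Actn3, the alpha-actinin of fast skeletal fibres and a relative of Actn2, fell by 1.46 ± 0.11 (adjusted p = 4.5e-05), from 7.27 ± 0.20 to 5.81 ± 0.17 (SD, n = 3), and Smpx, a small muscle protein responsive to stretch, by 0.33 ± 0.06 (adjusted p = 0.00885).

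Between the control chambers, where 51.3% of genes passed (28.2% higher and 23.1% lower), 10 of these 29 were higher in the ventricle and 7 lower, with a median of 0.05 against 0.07 over all genes. Ky was higher by 2.45 ± 0.14 and Fhod3 by 0.79 ± 0.09, and Actn3 was lower (-1.71 ± 0.11). In the mutants the mean of Ky and of Fhod3 lay between those of both control tissues (Ky at 6.99 ± 0.14 in mutant atria, 5.48 ± 0.17 in control atria and 7.94 ± 0.29 in ventricles). Actn3 was in the dimmest 40% of probe sets in mutant atria and in ventricles, which differed by 0.25 ± 0.11 (adjusted p = 0.128), and Ky was below the same limit (6.05 to 6.09 over the arrays) in control atria, so differences measured against these levels may be understated.

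Of 18 genes of titin, the I-band and the M-band, 16 were measured, of which 1 rose and 2 fell in the mutants (median 0.01). Over all genes 15.9% passed in this comparison (6.92% higher and 8.99% lower). Titin itself, Ttn, differed by -0.03 ± 0.07 (adjusted p = 0.816) and the ankyrin-repeat relative Ankrd2 stood at 5.86 ± 0.00 in mutants, among the dimmest probe sets in all groups. The list also holds Mybpc3, the myosin-binding protein C of the thick filament, which was its only gene to rise (0.51 ± 0.08, adjusted p = 0.00351). Trim63, the muscle ubiquitin ligase MuRF, fell by 0.39 ± 0.10 (adjusted p = 0.0273) and Nbr1, an autophagy receptor that binds titin, by 0.21 ± 0.06 (adjusted p = 0.0381). Smyd1 (0.25 ± 0.08, adjusted p = 0.0571) and Trim54 (-0.35 ± 0.12, adjusted p = 0.0741) did not pass. The count of 3 was 1 without mutant atrium replicate 2 or 3, or without control atrium replicate 1 or 3. In the ventricle 5 of 16 were higher and 3 lower (5 in all without control atrium replicate 1), beside 51.3% of all genes (28.2% higher and 23.1% lower). Those of the list that were higher included Mybpc3 (0.59 ± 0.08), Trim54 (0.74 ± 0.12) and Smyd1 (0.46 ± 0.08).

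Among 16 genes known to respond to load or stretch 15 were measured, of which 3 rose and none fell in the mutants (median 0.00). Of all genes 6.92% rose and 8.99% fell. Those of the list that rose were Myh7, the slow myosin heavy chain (3.58 ± 0.21), the growth factor Hbegf (0.93 ± 0.12, adjusted p = 0.00107) and endothelin, Edn1 (0.36 ± 0.09, adjusted p = 0.0272). Myh7 also belongs to the 4 ventricular muscle markers, all of which rose (median 3.20), while 4 of 7 atrial muscle markers fell and none rose (median -1.09). Whether load had a part in the rise of Myh7 was not tested. Skeletal actin, Acta1, differed by 1.20 ± 0.54 (adjusted p = 0.178) and the matricellular gene Ccn1 by -0.47 ± 0.25 (adjusted p = 0.251). Acta1 was 7.20, 8.27 and 8.36 in the mutants and thus lowest in replicate 1, as were Myot and Ankrd23. The list as a whole did not share this: replicate 1 was the lowest mutant array in 6 of the 15 genes (34.4% of all genes) and replicate 2 in 8 (38% of all genes). Between the control chambers 4 were higher in the ventricle and 6 lower, beside 51.3% of all genes (28.2% higher and 23.1% lower). Those of the list included Myh7 at 2.58 ± 0.21, Nppa, which lies at the array maximum in atria, at -2.30 ± 0.13 and the connective tissue growth factor Ccn2 at -2.35 ± 0.16.

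**Figure D5:**
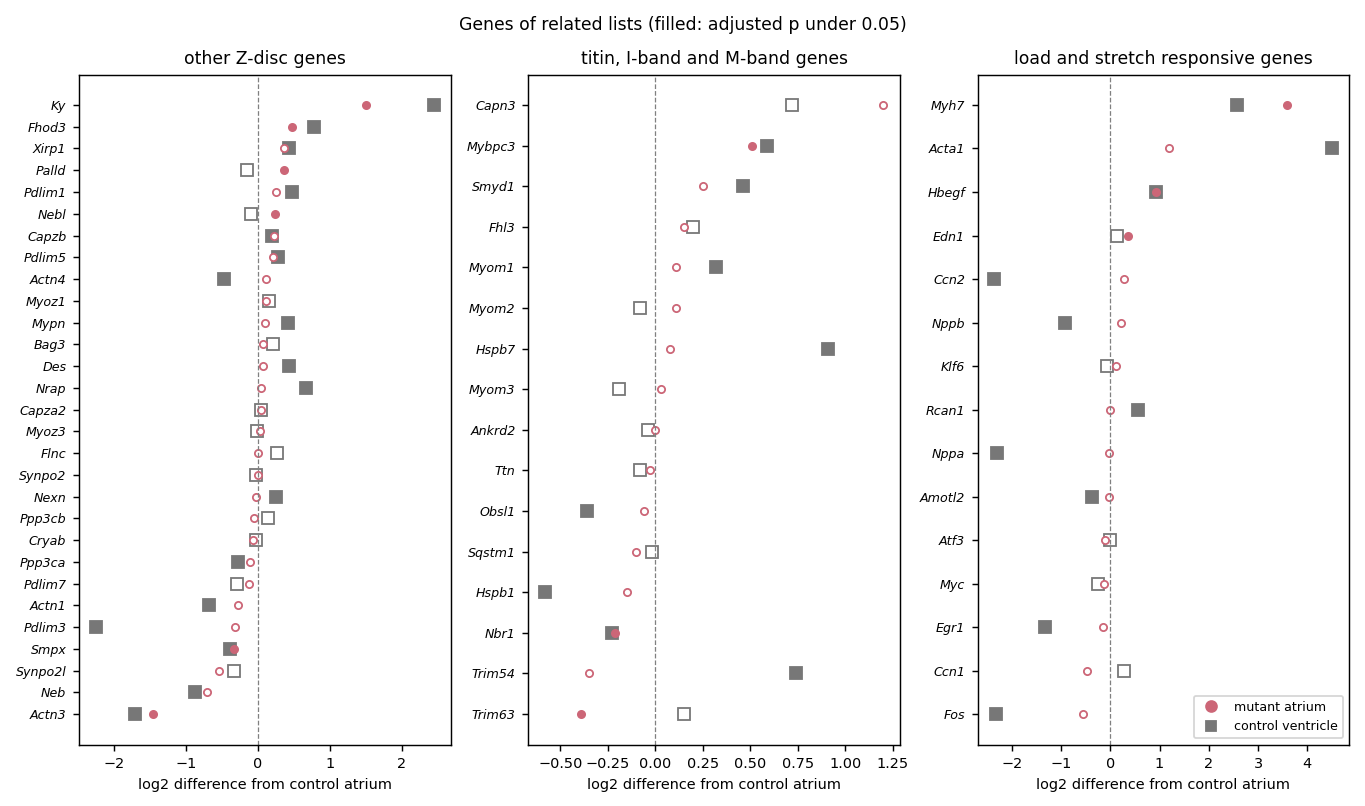
Log2 difference of mutant atrium (circles) and control ventricle (squares) from control atrium for 29 other Z-disc genes, 16 genes of titin, I-band and M-band and 15 load responsive genes, filled where the adjusted p was under 0.05. Ky and Actn3 lie far from 0 on the same side in both comparisons, which share the control atria.

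The genes with the pattern most like those of Fhl2, Myot and Tcap, the members with the largest difference between mutant and control atria whether or not it passed, were found by Pearson correlation over the 9 arrays, as a description across groups that share arrays. For Fhl2 they were Lnx1 (r = 0.996), a ubiquitin ligase, and Smyd2 (r = 0.996), a lysine methyltransferase. Smyd2 stood at 10.88 ± 0.16 in mutant atria, 8.72 ± 0.10 in control atria and 11.71 ± 0.07 in ventricles. For Myot they were Rnf128 (r = 0.993) and Mrpl46 (r = 0.992), which differed far less between the control chambers, by 1.04 and 0.95. For Tcap they were Tnnt1 (r = 0.975), the slow skeletal troponin T, which stood at 11.12 in mutant atria, 8.52 in control atria and 9.32 in ventricles, and Gnai2 (r = 0.971).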

How the data were processed

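Transcript levels of 9 Affymetrix mouse arrays (3' IVT labelling, 3 arrays for each of 3 groups) were used. The authors deposited 1 linear intensity for each probe set, made with RMA per the submitters' processing notes. The version of RMA and the genome build are not given in the sources used here. Log2 was taken and no further normalisation applied. Of 45101 probe sets, 64 controls, 932 with several genes and 9160 unnamed in the platform annotation were left out.

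All 34945 remaining probe sets entered a linear model with 1 mean per group in limma 3.58.1 (R 4.3.3, lmFit and eBayes, 2-sided, 6 residual and 3.83 prior degrees of freedom), with Benjamini-Hochberg adjustment and a threshold of 0.05. Precision is limited by having 3 arrays in a group. The labels call the replicates biological, and do not say whether same-numbered samples share an animal. No pairing was used.

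The members, gene lists and tests were chosen with earlier results of these data known. Of the lists of other Z-disc, titin and M-band, and load responsive genes, up to 5 genes with the smallest p in the mutant comparison and 3 in the chamber comparison were named, and for the 3 members with the largest mutant difference the 2 genes with the highest correlation. Nebl, Ttn and Ankrd2, named after their values were seen, fall outside that choice. List genes were matched through synonyms where symbols had changed. Alternatives were the replicate block, an intensity trend, a filter on the dimmest 40%, quantile normalisation, median centring, both ways of giving 1 value per gene, a fit of only 2 groups, array weights, a 2-fold minimum, Y-linked and hepatocyte covariates and leaving out each array. The last was added for the gene lists after the data were seen. The fit was tested on simulated data. Figures were drawn with matplotlib 3.10.9 in Python 3.11.15.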

Additional observations from a re-analysis of the deposited data

How the results depend on the processing

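Counts of member probe sets called stayed within 1.5 times the main count (3 for mutant against control atrium, 10 for ventricle against control atrium, 8 for mutant atrium against ventricle) except in the following settings. With a 2-fold minimum they were 1, 4 and 3, with 607, 2033 and 1257 of all probe sets called in place of 4861, 16492 and 9612. With the hepatocyte covariate they were 1, 1 and 7, where 94 of all probe sets passed in the mutant comparison against 4861 without it, and 1472 against 16492 in the chamber comparison. The mean of all probe sets per gene gave 5 in the chamber comparison, over 10 genes in place of 14 probe sets. Leaving out 1 array gave 2 to 5 in the mutant comparison, where the 5 came without mutant atrium replicate 1, 10 to 10 in the chamber comparison and 7 to 8 between mutant atrium and ventricle. The mutant comparison called 2714 of all probe sets without mutant atrium replicate 2, 3049 without mutant replicate 3, 2934 without control atrium replicate 1 and 3002 without control replicate 2. With the replicate block the counts were 3, 10 and 7, and the block cost the call of Csrp3 against the ventricle and no other member call. Same-numbered arrays share only a number: their deviations from the group means correlated at -0.1 to 0.11, and not every array correlated best with its own number. For the lists, leaving out 1 array gave 4 to 7 of the other Z-disc genes, 1 to 4 of the titin and M-band genes and 2 to 4 of the load responsive genes in the mutant comparison, and 12 to 19, 5 to 8 and 9 to 11 in the chamber comparison.

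Signs turned only for differences that had not passed or for probe sets of a gene that disagree. In mutant against control atrium Actn2 was 0.02 with median centring and without replicate 1 of the mutants or either of replicates 2 and 3 of the control atria, and 0.00 with the Y-linked covariate. With 1 array left out it ranged down to -0.05 (without control atrium replicate 1), with quantile normalisation it was -0.07 and with the hepatocyte covariate -0.18. Ankrd23 ranged from -0.16 and -0.15 without mutant atrium replicate 2 or 3 to 0.88 without replicate 1, and Ankrd1 from -0.08 (1420991_at) and -0.10 (1420992_at) without replicate 3 to 0.27 and 0.15 without replicate 1. In ventricle against control atrium Csrp3 was -0.10 with quantile normalisation and -0.03 with the hepatocyte covariate, under which Actn2 was -0.07. The mean over the probe sets of Ldb3 was 0.11 there and -0.13 for mutant atrium against ventricle, and the Ldb3 probe set 1451999_at was in the latter -0.28 without ventricle replicate 3, 0.09 without mutant atrium replicate 1 and -0.33 with the Y-linked covariate. In the chamber comparison the hepatocyte covariate also cost the calls of Myot (4.20, adjusted p = 0.0943), Ankrd23 (2.57, 0.334), Ankrd1 (-0.85, 0.2 and -1.13, 0.224), Fhl1, Ldb3 and Myoz2, and the Y-linked covariate that of Ldb3 1433783_at (-0.25, 0.0773). The cause was not tested.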
